A study of Oryctolagus cuniculus with 27 samples.

Results

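The comparison described here is between aortic valve cusps of rabbits that had eaten an atherogenic and vitamin D2 enriched diet for 7 weeks (n = 4) and cusps of rabbits on normal chow (n = 4). The 8 libraries were chosen by their labels from the 27 of the series, and all genes of the valve table from which the authors had removed myocardial genes were used. All animals were male New Zealand rabbits labelled WT, and 1 cusp was dissected from each, freed of most of the surrounding fat and rinsed of blood. The diet held 1% cholesterol and 3500 IU of ergocalciferol, given in the design text as a daily dose per kilogram. Ages are not given. The design text says that the controls were pooled from 2 and 4 weeks, whereas the titles name 7 weeks for control replicates 1, 2 and 3 and 2 weeks for control replicate 4, so whether the controls match the 7-week animals in age is uncertain. Cusps after 2 and 4 weeks of the diet (n = 4 each) are used only as side comparisons.

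A valve cusp is a thin leaflet of interstitial cells, which make collagen, elastin and proteoglycan layers, covered on both faces by endothelium. In calcific valve disease lipoproteins are retained in the leaflet, monocytes enter and become lipid-laden macrophages, and interstitial cells can take on contractile, matrix-degrading or bone-like programmes. Mineral deposition depends on phosphate and pyrophosphate supply, on alkaline phosphatase and on inhibitor proteins, and vitamin D raises intestinal uptake of calcium and phosphate. Heart muscle, fat and blood lie next to the cusp and can be carried into a dissected sample.

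The libraries held about 8451910 to 16496800 counts. Levels are given as CPM, counts scaled to a common library total of 1000000, always in the order of replicates 1 to 4. Interstitial markers were abundant in both groups: COL3A1, the chain of type III collagen, lay at 2215 to 3805 CPM in controls and at 1266 to 6266 CPM at 7 weeks. Ribosomal RNA from the RN18S gene took 0.476 to 2.06% of counts in controls and 0.51 to 2.21% at 7 weeks, and mitochondrially encoded genes 6.83 to 21% and 9.48 to 19% respectively. Heart muscle transcripts were present in every cusp. The cardiomyocyte list (28 genes tested) took 2.80% ± 1.56 (SD) of counts in controls and 3.37% ± 1.93 at 7 weeks, and the difference of means, 0.564 percentage points, had an exact permutation p of 0.657, where the smallest possible p is 0.0286.

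Atrial muscle genes did separate the groups. Their list shares NPPA, MYL4, MYL7, SLN and MYH6 with the cardiomyocyte list, so the summed counts of these lists are not independent. The atrial list took 0.019, 0.00765, 0.0906 and 0.0206% of counts in control replicates 1 to 4 and 0.136, 0.301, 1.06 and 0.0986% in 7-week replicates 1 to 4. Every 7-week library lay above every control, and 7-week replicate 3 was highest. The 6 left ventricular myocardium libraries of the series lay between 0.0123 and 0.312%. Atrial content and diet therefore cannot be told apart by design in these 8 libraries, and list counts are given beside those of a fit that carries the mean atrial level of each library as a covariate. That fit was added once the data had been seen. The covariate ran from 0.561 to 1.80 in controls and from 3.98 to 7.15 at 7 weeks (mean log2 CPM), without overlap. A call lost in that fit therefore does not by itself show a smaller change, and medians in that fit are also given for leukocyte lists.

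The library names carry sample numbers, S1 to S4 at 7 weeks and S31 to S34 in controls. If these mark separate runs, run and group cannot be told apart. Genes for which all 4 libraries at 7 weeks lay above the other 12 valve libraries numbered 99, and 62 of them had no symbol but a LOC number, which 19.8% of all tested genes carry, against 1 of 4 such genes for the controls, 1 of 7 for 4 weeks and 11 of 160 for 2 weeks. Control replicate 1 stood above the other controls for many genes that were called higher at 7 weeks, among them LCP1 and SPP1, given below. It did so too for ABCA1, a cholesterol efflux pump, at 61.3, 17.9, 17.9 and 17.1 CPM in the controls. POSTN, the matrix protein periostin, was at 2163, 286, 544 and 521 CPM, and neither gene was called.

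**Figure D1:**
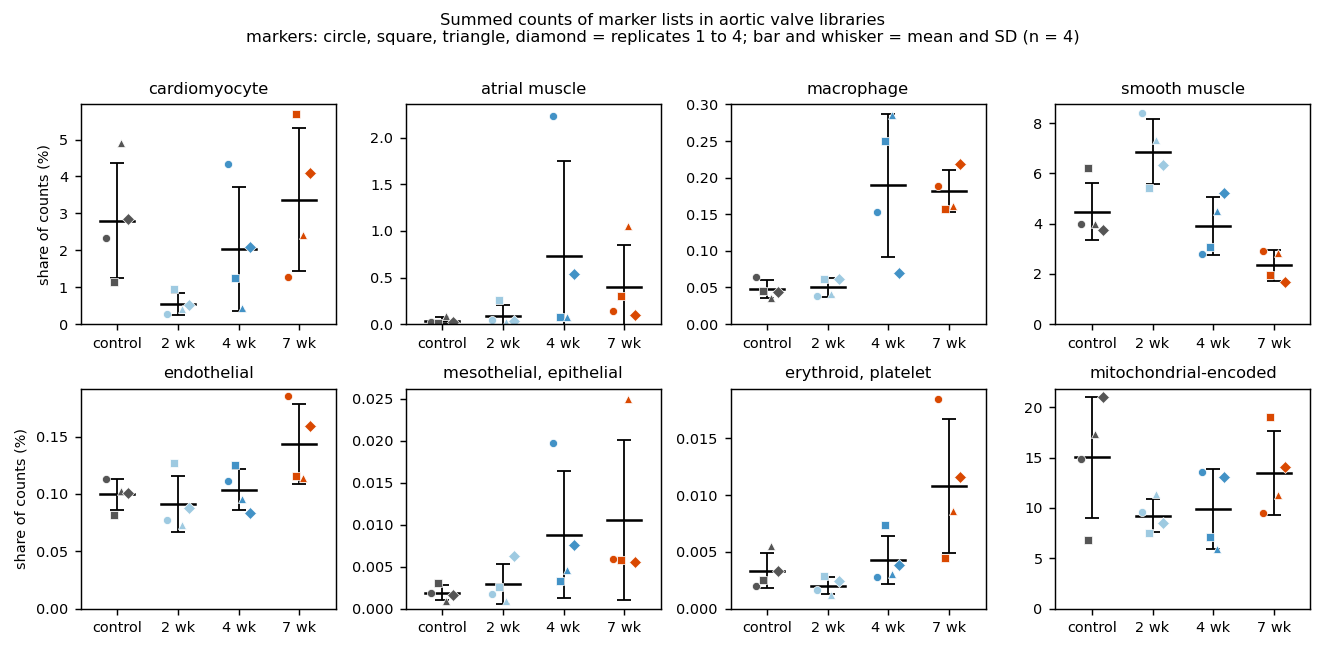
Share of library counts (%, vertical axis, from 0) taken by marker lists and by mitochondrially encoded genes in the 16 valve libraries, by group (horizontal axis). Points are libraries, and bars with whiskers are means with SD. The macrophage share is 0.0359 to 0.0648% in controls and 0.157 to 0.219% at 7 weeks, and the smooth muscle share 3.76 to 6.2% and 1.68 to 2.93%. The atrial, endothelial (0.0815 to 0.113% and 0.114 to 0.185%) and mesothelial and epithelial shares (0.000966 to 0.00312% and 0.00557 to 0.0249%) are also higher in every 7-week library than in every control. The erythroid, cardiomyocyte and mitochondrially encoded shares overlap.

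After 7 weeks of diet, transcripts of macrophages and other leukocytes, of matrix-degrading enzymes, of the cell cycle and of atrial muscle were higher. Smooth muscle contractile genes and the elastic fibre genes FBLN5 and LTBP4 were lower. Of 15627 genes tested, 1270 differed from control (8.13%), 846 of them higher (5.41%) and 424 lower (2.71%), with edgeR's quasi-likelihood test at a Benjamini-Hochberg adjusted p of 0.05. The median log2 fold change of all genes was -0.01. Each list count below stands against these shares of all genes, 5.41% higher and 2.71% lower. The change exceeded 4-fold in 356 higher and 27 lower genes. All 4 libraries at 7 weeks lay above all 4 controls for 1334 genes (8.54%) and below them for 451 (2.89%), and 712 higher and 247 lower calls were among these. The number of calls depended on single libraries. It was 2283 without 7-week replicate 1, 843 without replicate 2 and 533 without replicate 4, and 477, 460 and 722 without control replicate 2, 3 or 4. It was 1154 without control replicate 1 and 921 without 7-week replicate 3. Below, a left-out library is named where its removal, on its own, ended a call of a described gene or moved a list count above 0 by more than 1.5 times. With the atrial covariate 151 genes were higher and 52 lower. Replicates come from separate animals, so the spread includes animal and dissection.

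**Figure D2:**
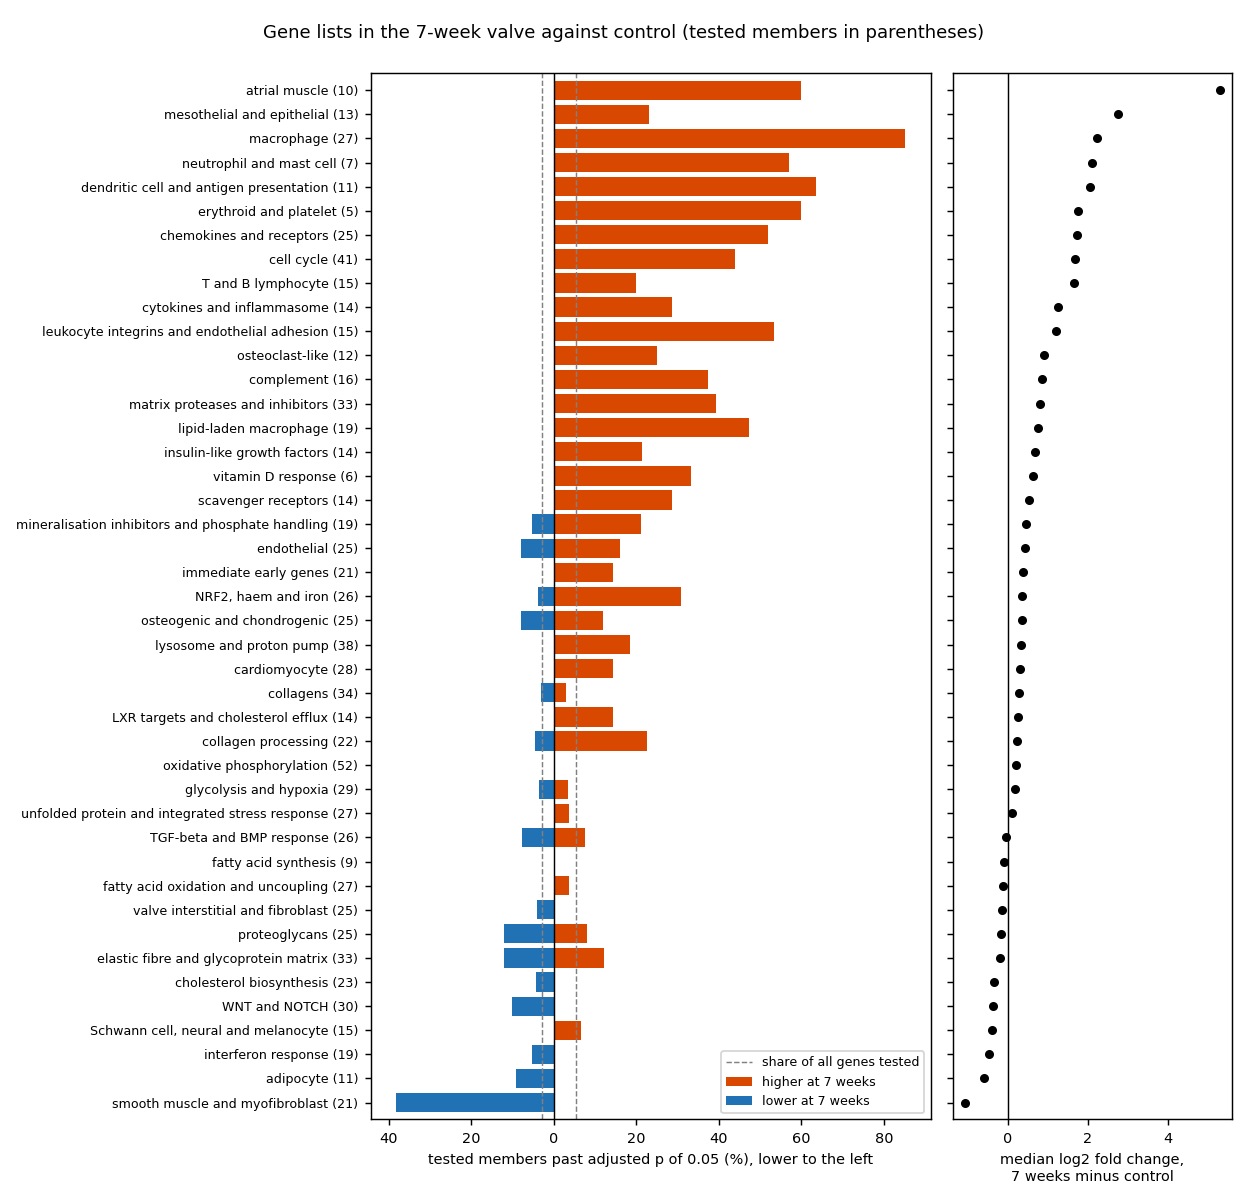
Left, percentage of tested members of each gene list past an adjusted p of 0.05 in the 7-week valve against control, higher to the right and lower to the left. Dashed lines mark the share over all 15627 genes, 5.41% higher and 2.71% lower. Right, median log2 fold change of the tested members. Atrial muscle has the highest median (5.29), macrophage the highest share higher (85.2%) and smooth muscle the lowest median (-1.05) and the highest share lower (38.1%).

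The genes with the largest increases among those with a symbol, a mean of at least 5 CPM and no overlap of the groups were NPPA, BMP10, SLN, MYL4 and MYL7, all of atrial muscle, with NOS3, MMP13, PVALB, IL3RA, SERPINA3, MMP1 and FGF23. The MYL7 call held in 1 of the 8 fits without a library, that without 7-week replicate 1, and that of SLN was lost without control replicate 2 or 3. PVALB, the calcium-binding protein parvalbumin, was at 0.0713, 0.256, 0.148 and 0 CPM in controls and 15.6, 5.21, 6.96 and 4.36 CPM at 7 weeks (log2 fold change 5.88 ± 1.13 SE, adjusted p = 0.0113). IL3RA, the alpha chain of the interleukin 3 receptor, was at 0.285, 0, 0.519 and 0.0813 CPM and 3.98, 14.1, 10.7 and 8.43 CPM. It rose by 5.41 ± 1.02 on the log2 scale (adjusted p = 0.00762). SERPINA3, an acute-phase protease inhibitor, was at 0.428, 0, 0.0741 and 0.163 CPM and 13.4, 4.73, 4.24 and 2.24 CPM, with 7-week replicate 1 highest (change 5.10 ± 1.00, adjusted p = 0.00938). The calls for PVALB, IL3RA and SERPINA3 held when any 1 of the 8 libraries was left out.

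The largest decreases by the same rule were those of IGFBPL1, KL, LEP, MC5R, BGLAP, BMP3, OSR1, SOST, FAIM2, NIPAL4, NTF3 and TES. IGFBPL1, a secreted protein related to the insulin-like growth factor binding proteins, was at 1.85, 14.5, 4.52 and 4.96 CPM in controls and 0.522, 0.473, 0.596 and 0.242 CPM at 7 weeks. It fell by 3.81 ± 0.64 on the log2 scale (adjusted p = 0.00597). OSR1, a transcription factor of connective tissue and heart development, was at 77.5, 168, 112 and 139 CPM and 49.9, 17.3, 34.1 and 14.4 CPM, with no overlap. It fell by 2.17 ± 0.36 (adjusted p = 0.00597). NTF3, the neurotrophin NT-3, was at 9.76, 17.03, 9.19 and 13.7 CPM and 3.46, 2.01, 5.77 and 1.7 CPM and fell by 1.97 ± 0.39 (adjusted p = 0.00978). TES, testin, a protein of focal adhesions, was at 346, 470.3, 300.2 and 299 CPM and 184, 59.7, 108 and 41.2 CPM and fell by 1.91 ± 0.41 (adjusted p = 0.0132). The calls for FAIM2, NIPAL4 and MC5R each ended in 6 of the 8 fits that left out 1 library, and held without control replicate 1 or 7-week replicate 1, control replicate 1 or 7-week replicate 1, and control replicate 4 or 7-week replicate 1, respectively. KL's ended without control replicate 2, and the other 8 held in all of them.

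Macrophage genes rose together. Of 27 tested, 23 were higher and 0 lower, with a median log2 fold change of 2.23, against 5.41% higher and a median of -0.01 over all genes. Leaving out 1 library gave 16 to 23 higher, and the atrial covariate 9, with a median of 2.47. In bulk tissue more macrophages and more RNA per macrophage cannot be told apart. CD68, a lysosomal glycoprotein of macrophages, was at 23.8, 13.2, 7.93 and 15.9 CPM in controls and 63.5, 72.4, 70.9 and 99.6 CPM at 7 weeks. Every 7-week library lay above every control (change 2.35 ± 0.40, adjusted p = 0.00597). SPI1, the transcription factor PU.1 of the myeloid lineage, lay at 2.82 to 8.76 CPM and 25.1 to 36.98 CPM (change 2.48 ± 0.45, adjusted p = 0.00696). LCP1, the leukocyte actin-bundling protein plastin-2, was at 48.3, 12.6, 11.9 and 16.3 CPM and 285, 127, 170.2 and 234 CPM, with control replicate 1 well above the other controls and below all diet libraries (change 3.16 ± 0.53, adjusted p = 0.00597).

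Among the scavenger receptors, which take up modified lipoproteins and debris, 4 of 14 tested were higher and 0 lower (median 0.55). The count was 2 without control replicate 2 or 3 or 7-week replicate 4, and 1 with the atrial covariate, with a median of 0.77. MSR1, the class A scavenger receptor, was at 2.71, 0.32, 0.593 and 0.65 CPM in controls and 12.7, 3.9, 7.55 and 8.49 CPM at 7 weeks (change 2.87 ± 0.57, adjusted p = 0.00978). STAB1, stabilin-1, was at 78.3, 107, 88.1 and 72.6 CPM and 245, 215, 232 and 281 CPM, with no overlap and little spread in either group (change 1.49 ± 0.28, adjusted p = 0.00828). CD163, the haemoglobin-haptoglobin receptor, was at 16.7, 12.1, 9.78 and 6.26 CPM and 59.5, 42.6, 35.8 and 47.3 CPM. It rose by 2.05 ± 0.52 (adjusted p = 0.0269), a call lost without control replicate 2, 3 or 4 or 7-week replicate 2 or 4. CXCL16, a membrane-bound chemokine that also binds oxidised lipoprotein, rose by 1.02 ± 0.24 (adjusted p = 0.019), lost without control replicate 2 or 3 or 7-week replicate 4. CD36, the class B receptor for oxidised lipoprotein, did not pass and overlapped, at 299, 128, 302 and 209 CPM and 304, 151, 129.6 and 295 CPM. OLR1, the lectin-like oxidised lipoprotein receptor, stood at 0.0813 to 0.222 CPM and 0 to 1.03 CPM (adjusted p = 0.109), and CLEC7A, dectin-1, at a change of 2.11 ± 0.66 (adjusted p = 0.0596), past the threshold without control replicate 1 or 7-week replicate 2.

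The lipid-laden macrophage list had 9 of 19 tested members higher and 0 lower (median 0.77), and 7 to 9 higher when 1 library was left out. With the atrial covariate 3 were higher, with a median of 1.01. TREM2, a lipid-sensing receptor of phagocytes, was at 13.2, 3.97, 2.74 and 7.8 CPM in controls and 53.3, 70.5, 58.1 and 81.9 CPM at 7 weeks. Control replicate 1 was again the highest control, and no library of one group reached the other (change 3.28 ± 0.56, adjusted p = 0.00597). GPNMB, a glycoprotein of lysosome-rich phagocytes, was at 23.02, 11.1, 6.59 and 22.2 CPM and 133, 80.9, 164 and 432 CPM, with 7-week replicate 4 highest (change 3.66 ± 0.66, adjusted p = 0.00686). CHIT1, the macrophage chitinase, changed by 3.51 ± 0.75 (adjusted p = 0.0132) and LGALS3, galectin-3, by 1.09 ± 0.30 (adjusted p = 0.0389). Genes of lipid storage and hydrolysis on the same list did not pass: PLIN2, a lipid droplet coat protein, was at 43.04, 30.7, 34.9 and 24.3 CPM and 60.6, 25.2, 39.9 and 65.5 CPM, and the cholesterol-esterifying SOAT1 and the lysosomal lipase LIPA had changes of 0.32 ± 0.17 and 0.30 ± 0.28.

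Of the 14 tested LXR targets and cholesterol efflux genes, which oxysterols switch on, 2 were higher (14.3%, against 5.41% over all genes) and 0 lower (median 0.25). ABCG1, which exports cholesterol to high-density lipoprotein, was at 6.98, 2.56, 2.59 and 3.01 CPM and 21.8, 14.2, 13.3 and 28.5 CPM and rose 5.09-fold (2.35 ± 0.44, adjusted p = 0.00756). PLTP, the phospholipid transfer protein, was at 409.5, 339, 202 and 275 CPM and 1265, 1338, 1043 and 1487 CPM and rose 4.27-fold (2.09 ± 0.42, adjusted p = 0.0102). Both calls held without any 1 library and both were lost with the atrial covariate. ABCA1 was at 61.3, 17.9, 17.9 and 17.1 CPM and 94.2, 37.6, 40.7 and 65.7 CPM, overlapping through control replicate 1, with a change of 1.03 ± 0.42 (adjusted p = 0.138). Without that control it passed. APOE, apolipoprotein E, was at 440.2, 497, 163 and 444 CPM and 1025, 748, 718 and 1164 CPM, without overlap but short of the threshold (adjusted p = 0.062). In cholesterol biosynthesis 0 of 23 tested were higher and 1 was lower (4.35%, against 2.71% over all genes, median -0.33, 17 negative), and 0 with the atrial covariate. The 1 was LSS, lanosterol synthase, at 43.3, 70.2, 49.6 and 49.6 CPM and 42.6, 23.5, 42.5 and 36.7 CPM, which fell by 0.58 ± 0.16 (adjusted p = 0.0378), lost without control replicate 2, 3 or 4 or 7-week replicate 2 or 4.

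**Figure D3:**
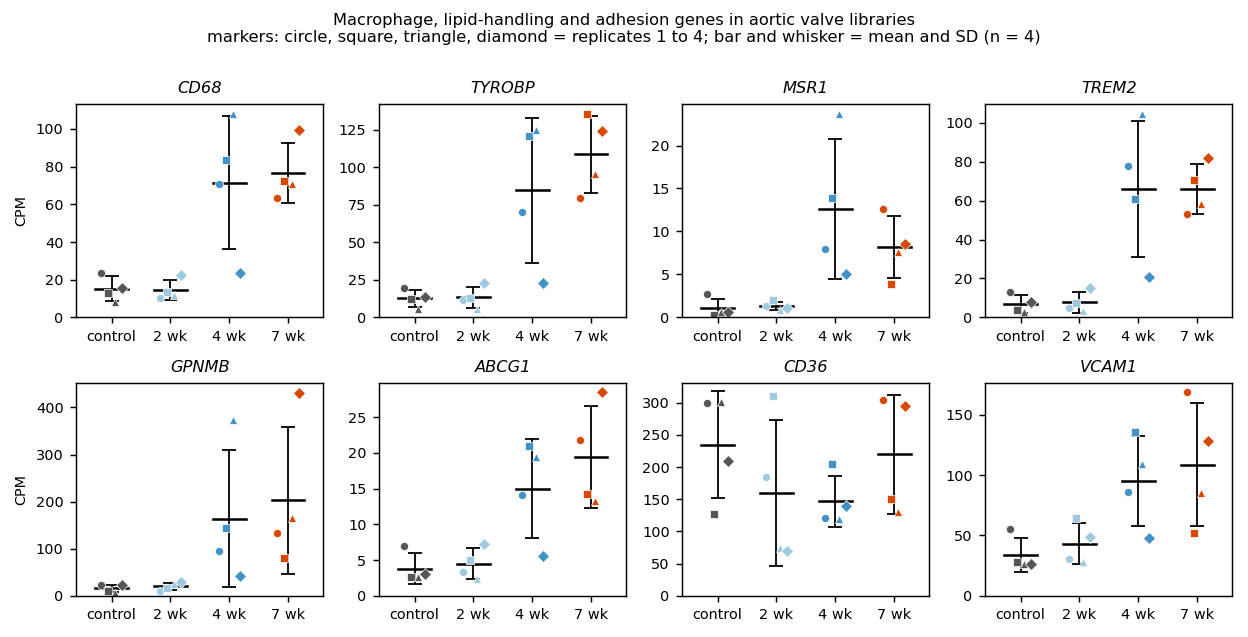
CPM (vertical axes, from 0) of 8 genes in the 16 valve libraries by group. Points are libraries, and bars with whiskers are means with SD. CD68, TYROBP, MSR1, TREM2, GPNMB and ABCG1 are higher in every 7-week library than in every control, whereas CD36 overlaps and VCAM1 overlaps through control replicate 1 (55.4 CPM) and 7-week replicate 2 (51.9 CPM).

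Lysosomal genes, which serve degradation of ingested material, had 7 of 38 tested higher and 0 lower (median 0.33, 31 positive). The count was 1 without control replicate 3 or 7-week replicate 4, 2 without control replicate 2 or 4 or 7-week replicate 3 and 3 without control replicate 1, and 5 with the atrial covariate. MAN2B1, lysosomal alpha-mannosidase, listed under the number LOC103346838, was at 132, 109, 76.9 and 102 CPM and 299.8, 217, 295 and 390.3 CPM. It rose by 1.505 ± 0.24 (adjusted p = 0.00597), a call held without any 1 library. The cathepsins CTSH and CTSZ changed by 0.90 ± 0.21 and 0.76 ± 0.21 (adjusted p = 0.0186 and 0.0382). The CTSH call was lost without control replicate 2 or 3 or 7-week replicate 4, and that of CTSZ held in 1 of the 8 fits, that without 7-week replicate 1.

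Chemokines and their receptors had 13 of 25 tested higher and 0 lower (median 1.73). The count was 5 without control replicate 2 or 3 or 7-week replicate 4 and 6 without control replicate 4. With the atrial covariate it was 1, with a median of 2.03. CX3CL1, the membrane-tethered chemokine fractalkine, was at 18.5, 7.36, 8.22 and 12.1 CPM in controls and 47.9, 63.3, 56.6 and 76.4 CPM at 7 weeks, with no overlap (change 2.42 ± 0.48, adjusted p = 0.00971). CXCL14, a chemokine of epithelia and stroma, was at 0.0713, 0.32, 0.445 and 0.163 CPM and 7.31, 1.42, 4.04 and 3.52 CPM (change 3.90 ± 0.65, adjusted p = 0.00597). CCL19, which attracts dendritic and T cells, was at 0.784, 1.28, 0.37 and 1.22 CPM and 6.14, 5.68, 9.94 and 7.64 CPM (change 2.99 ± 0.55, adjusted p = 0.00753). These 3 calls held without any 1 library. CCL2, the main monocyte attractant, was at 4.77, 2.11, 1.41 and 1.3 CPM and 14.7, 4.85, 7.62 and 5.88 CPM, 7-week replicate 2 just above control replicate 1. Its call (change 1.73 ± 0.48, adjusted p = 0.0389) held in 1 of the 8 fits, that without control replicate 1. CXCL8, interleukin 8, stayed below 0.6 CPM in all 8 libraries and did not pass (adjusted p = 0.135), except without control replicate 1.

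Leukocyte integrins and endothelial adhesion molecules, which hold and guide entering leukocytes, had 8 of 15 tested higher and 0 lower (median 1.21). The count was 4 without control replicate 3 or 4 or 7-week replicate 4 and 5 without control replicate 2. With the atrial covariate it was 0, with a median of 1.44. ITGB2, the beta chain of leukocyte integrins, was at 19.4, 5.63, 4.89 and 8.54 CPM and 80.5, 54.5, 68.3 and 100.1 CPM, without overlap (change 2.97 ± 0.59, adjusted p = 0.00978). VCAM1, the endothelial ligand of the alpha 4 integrin, was at 55.4, 27.7, 26.7 and 26.5 CPM and 169, 51.9, 85.5 and 129 CPM. The groups overlapped through control replicate 1 and 7-week replicate 2 (change 1.62 ± 0.34, adjusted p = 0.0126). ICAM1, a ligand of ITGB2 integrins, was at 37.97, 32.1, 25.2 and 27.6 CPM and 81.98, 52.4, 73.3 and 80.6 CPM, without overlap (change 1.21 ± 0.25, adjusted p = 0.0115).

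Of 14 tested cytokine and inflammasome genes, 4 were higher and 0 lower (median 1.25): TGFB1, IL34, IL1RN and IL11. The count was 1 without control replicate 2 or 3 or 7-week replicate 4 and 2 without control replicate 4. With the atrial covariate it was 1, with a median of 1.08. Another 8 members were too low to test, and 4 of 22 were higher without the low-count filter. IL34, a ligand of the macrophage growth factor receptor CSF1R, was at 10.05, 13.4, 7.71 and 13.9 CPM and 23.2, 24.3, 30.1 and 27.4 CPM and rose by 1.22 ± 0.29 (adjusted p = 0.0219), lost without control replicate 1, 2 or 3 or 7-week replicate 4. IL1RN, the interleukin 1 receptor antagonist, was at 5.13, 0.832, 0.593 and 2.19 CPM and 14.6, 8.64, 10.5 and 14.3 CPM and rose by 2.44 ± 0.61 (adjusted p = 0.0261), lost without control replicate 2, 3 or 4 or 7-week replicate 4. IL11, a cytokine linked to fibroblast activation, rose by 2.94 ± 0.79 (adjusted p = 0.035), lost without control replicate 2, 3 or 4 or 7-week replicate 2, 3 or 4. The inflammatory cytokines IL1B and TNF were below 2 CPM in every library of both groups. IL1B was at 0.285, 0.064, 0.37 and 0 CPM and 0.783, 0.355, 0.464 and 1.52 CPM and TNF at 0.356, 0.064, 0.148 and 0.488 CPM and 0.979, 1.3, 0.464 and 0.788 CPM, and neither passed (adjusted p = 0.115 and 0.115).

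Complement genes had 6 of 16 tested higher and 0 lower (median 0.87), and 4 to 7 higher when 1 library was left out. With the atrial covariate 2 were higher, with a median of 1.18. C5AR1, the receptor of the C5a anaphylatoxin, was at 9.69, 5.7, 4.00 and 6.83 CPM and 35.5, 33.7, 31.2 and 42.2 CPM, and C3AR1, that of C3a, at 2.71, 2.18, 1.19 and 1.38 CPM and 7.38, 5.68, 7.22 and 6.79 CPM. Neither overlapped (changes 2.45 ± 0.42 and 1.85 ± 0.33, adjusted p = 0.00597 and 0.00671). CLU, clusterin, a secreted chaperone that restrains terminal complement, was at 396, 451, 244 and 383 CPM and 1136, 1071, 1259.8 and 1276 CPM (change 1.69 ± 0.29, adjusted p = 0.00600). C1QB, a chain of C1q listed as LOC127482788, was at 18.5, 28.3, 12.7 and 19.4 CPM and 54.04, 104, 53.1 and 104 CPM (change 2.06 ± 0.42, adjusted p = 0.0111). C3 itself did not pass (change 0.85 ± 0.39, adjusted p = 0.18).

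Dendritic cell and antigen presentation genes had 7 of 11 tested higher and 0 lower (median 2.05). The count was 2 without control replicate 2, 3 without control replicate 3 and 4 without 7-week replicate 4. With the atrial covariate it was 1, with a median of 2.51. CD74, the invariant chain of class II molecules, was at 281, 70.4, 59.2 and 164 CPM and 1035, 624, 789.7 and 1094 CPM, without overlap (change 2.60 ± 0.55, adjusted p = 0.0126). IRF8, a transcription factor of dendritic cells and monocytes, was at 7.77, 5.7, 6.74 and 6.26 CPM and 22.3, 12.2, 19.7 and 28.98 CPM (change 1.61 ± 0.33, adjusted p = 0.0108). Lymphocyte genes were low, and 3 of 15 tested were higher and 0 lower (median 1.65): CD22 and CD79A of B cells and the interleukin 7 receptor IL7R. The count was 5 without control replicate 1, 2 without control replicate 2, 3 or 4, and 1 with the atrial covariate, with a median of 1.17. Another 9 members were too low to test, and 3 of 24 were higher without the low-count filter. CD22 was at 1.43, 0.384, 0.445 and 0.488 CPM and 5.35, 4.26, 5.04 and 9.34 CPM (change 3.11 ± 0.45, adjusted p = 0.00362). The T cell receptor component CD3E was at 0.143, 0.064, 0.25 and 0.548 CPM and 0.835, 0.542, 0.653 and 1.07 CPM and did not pass (adjusted p = 0.182). In the neutrophil and mast cell list 4 of 7 tested were higher, CXCR2, S100A8, S100A9 and MS4A2, and the count was 0 without control replicate 2 or 4 or 7-week replicate 4, 1 without control replicate 3 or 7-week replicate 2 and 2 without control replicate 1. With the atrial covariate it was 0, with a median of 1.98 against 2.11 in the main fit. Another 9 members were too low to test. Without the low-count filter 4 of 14 were higher, and with a stricter filter 0 of 1. S100A8, a calprotectin subunit, was at 0.784, 0.192, 0.963 and 0.325 CPM and 3.00, 14.7, 1.59 and 3.46 CPM. The groups did not overlap, and 7-week replicate 2 was far highest (adjusted p = 0.0355, lost without control replicate 1, 2, 3 or 4 or 7-week replicate 2 or 4). Of the interferon response genes 0 of 19 tested were higher, 17 had negative changes, and 1 was lower, IFIT2 (5.26%, against 2.71% over all genes). IFIT2 fell by 0.99 ± 0.27 (adjusted p = 0.0381), lost without control replicate 1, 2 or 3 or 7-week replicate 2 or 4 and with the atrial covariate.

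Genes of mineral deposition changed in both directions. SPP1, osteopontin, a phosphoprotein that binds and inhibits hydroxyapatite and is also made by lipid-laden macrophages, was at 218, 116, 109.9 and 121 CPM in controls and 744, 324, 704 and 593 CPM at 7 weeks. No diet library fell as low as control replicate 1, the highest control (change 2.02 ± 0.40, adjusted p = 0.00957). In the osteogenic and chondrogenic list 3 of 25 tested were higher, ALPL, IBSP and ACAN, and 2 lower, BGLAP and PHEX (median 0.35). These are 12% and 8%, against 5.41% and 2.71% over all genes. The higher count was 0 without control replicate 3 and 1 without control replicate 1, 2 or 4 or 7-week replicate 4, and the lower count 1 without control replicate 2 or 3 or 7-week replicate 2, 3 or 4. With the atrial covariate 1 was higher and 0 lower. ALPL, the alkaline phosphatase that breaks down pyrophosphate, was at 6.27, 5.12, 3.26 and 6.34 CPM and 13.1, 13.3, 14.05 and 14.4 CPM, without overlap. Its call (change 1.38 ± 0.38, adjusted p = 0.039) held in 1 of the 8 fits without a library, that without 7-week replicate 1. IBSP, bone sialoprotein, was at 0.428, 0, 0.445 and 0.0813 CPM and 3.72, 0.71, 0.729 and 3.88 CPM, high in replicates 1 and 4 (change 3.16 ± 0.88, adjusted p = 0.0392). That call was lost without control replicate 1, 2, 3 or 4 or 7-week replicate 1 or 4. ACAN, aggrecan, the large proteoglycan of cartilage, was at 84.4, 29.9, 29.6 and 35.5 CPM and 149, 85.9, 205 and 152 CPM (change 1.69 ± 0.37, adjusted p = 0.0136), lost without control replicate 3.

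The bone matrix gene BGLAP, osteocalcin, fell instead. It was at 4.2, 10.7, 4.45 and 9.67 CPM in controls and 1.37, 1.3, 1.52 and 0.909 CPM at 7 weeks, every diet library below every control (fell by 2.52 ± 0.52, adjusted p = 0.0116). PHEX, a membrane peptidase of osteocytes, was at 2.28, 4.61, 6.08 and 1.38 CPM and 0.783, 0.947, 0.133 and 1.58 CPM and fell by 2.05 ± 0.60 (adjusted p = 0.0479), lost without control replicate 2 or 3 or 7-week replicate 1, 2, 3 or 4. The transcription factors that define osteoblasts and chondrocytes did not pass. RUNX2 was at 2.351, 1.15, 2.82 and 1.87 CPM and 4.37, 1.54, 2.32 and 5.94 CPM, and SOX9 at 8.05, 7.23, 11.3 and 4.15 CPM and 14.03, 1.77, 5.43 and 4.13 CPM, both overlapping (adjusted p = 0.266 and 0.587). SP7, osterix, was below 0.5 CPM in all 8 libraries and was not tested. BMP2 and BMP4, bone morphogenetic ligands, had changes of 0.48 ± 0.28 and -0.27 ± 0.25 (adjusted p = 0.282 and 0.523).

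Among the 19 tested mineralisation inhibitors and phosphate handling genes, 4 were higher, SPP1, ANKH, AHSG and VKORC1, and 1 lower, KL (median 0.46). That is 21.1% and 5.26%, against 5.41% and 2.71% over all genes. The count of higher genes was 2 without control replicate 1, 2, 3 or 4 or 7-week replicate 3 or 4, and 1 with the atrial covariate. ANKH, which exports ATP and pyrophosphate, was at 173, 175, 173 and 135 CPM and 419, 138, 369 and 423 CPM, with 7-week replicate 2 within the controls (change 0.98 ± 0.21, adjusted p = 0.0136). The call was lost without 7-week replicate 4. VKORC1, which recycles vitamin K, was at 135, 164, 66.5 and 114 CPM and 220.4, 179.7, 241 and 188 CPM (change 0.79 ± 0.23, adjusted p = 0.0481), and held in 1 of the 8 fits, that without 7-week replicate 1. AHSG, fetuin-A, a plasma inhibitor made in liver, was at 0.0713, 0.128, 0 and 0.0813 CPM and 1.11, 0.355, 11.7 and 0.788 CPM, far highest in 7-week replicate 3 (adjusted p = 0.025), and lost without control replicate 1, 2, 3 or 4 or 7-week replicate 3. MGP, matrix Gla protein, a vitamin K dependent inhibitor, was at 2765, 1969, 1211 and 2256 CPM and 2597, 2755, 3910.2 and 3690.0 CPM, overlapping (adjusted p = 0.175). ENPP1, which makes pyrophosphate, was at 11.1, 9.54, 13.1 and 3.66 CPM and 18.7, 4.73, 9.54 and 10.4 CPM, and TNFRSF11B, osteoprotegerin, at 34.3, 27.8, 27.3 and 32.4 CPM and 60.8, 17.3, 54.3 and 44.6 CPM. Both overlapped (adjusted p = 0.834 and 0.304).

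Hormones of phosphate balance and bone turnover were at low levels and differed. FGF23, the phosphate-lowering hormone of osteocytes, was at 0.214, 0, 0.148 and 0.325 CPM in controls and 2.55, 3.31, 1.46 and 15.3 CPM at 7 weeks, 7-week replicate 4 far above the others (adjusted p = 0.022). The call was lost without control replicate 2 or 3 or 7-week replicate 4. KL, klotho, the co-receptor of FGF23, was at 2.21, 12.2, 2.96 and 4.06 CPM and 0.718, 0.355, 0.729 and 0.485 CPM, every diet library below every control. It fell by 3.20 ± 0.70 (adjusted p = 0.014), lost without control replicate 2, the highest control. TNFSF11, RANK ligand, the osteoclast differentiation factor, was at 0.214, 0, 0 and 0.0813 CPM and 4.96, 0.237, 1.66 and 1.64 CPM, high in 7-week replicate 1 and barely above the controls in replicate 2 (adjusted p = 0.0132). Of the vitamin D response genes 8 were too low to test, and 2 of 14 were higher without the low-count filter. FGF23 and TNFSF11 were the 2 of 6 tested that were higher. The count was 1 without control replicate 2 or 7-week replicate 4, and 0 with the atrial covariate. VDR, the vitamin D receptor, was at 0.926, 1.86, 3.41 and 1.46 CPM and 4.44, 3.31, 5.83 and 3.64 CPM, short of the threshold (adjusted p = 0.0996) and past it without control replicate 3. CYP24A1, the vitamin D degrading enzyme, was too low to test.

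Of the 12 tested osteoclast-like genes 3 were higher and 0 lower (median 0.91), MMP9, MMP14 and ATP6V0D2. The count was 0 without control replicate 3 and 1 without control replicate 2 or 7-week replicate 4, and 2 with the atrial covariate. ATP6V0D2, a proton pump subunit of osteoclasts and some macrophages, was at 1.57, 0.64, 0.222 and 1.06 CPM and 9.59, 2.84, 7.09 and 8.67 CPM (change 2.96 ± 0.70, adjusted p = 0.0198), lost without control replicate 2 or 3 or 7-week replicate 4. CTSK, cathepsin K, did not pass, at 634, 555, 340.1 and 462 CPM and 926, 415, 833 and 832 CPM, and DCSTAMP, needed for cell fusion, lay at 0 to 0.325 CPM and 0.718 to 1.03 CPM (adjusted p = 0.243).

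**Figure D4:**
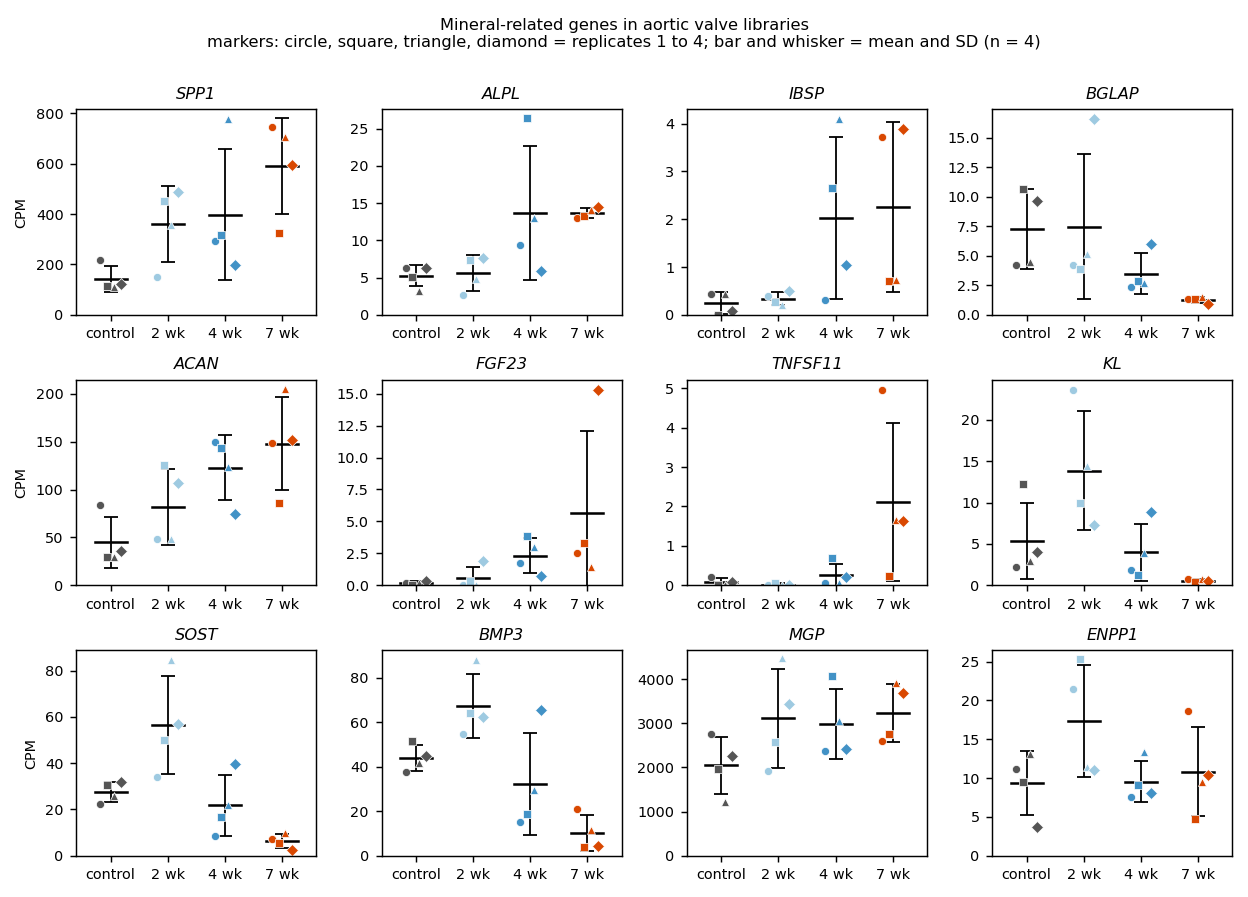
CPM (vertical axes, from 0) of 12 genes of mineral deposition and bone signalling in the 16 valve libraries by group. Points are libraries, and bars with whiskers are means with SD. BGLAP, KL, SOST and BMP3 are lower in every 7-week library than in every control, SPP1, ALPL, IBSP, ACAN, FGF23 and TNFSF11 are higher in every one, and MGP and ENPP1 overlap.

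Of 30 tested WNT and NOTCH genes 0 were higher and 3 lower (median -0.36), SOST, FRZB and SFRP4, each known as a secreted WNT inhibitor. The lower share was 10%, against 2.71% over all genes. The count was 1 without control replicate 2 or 7-week replicate 4, and 0 with the atrial covariate. SOST, sclerostin, was at 22.2, 30.7, 25.9 and 31.7 CPM in controls and 7.18, 5.44, 10.01 and 2.61 CPM at 7 weeks, each diet library below a tight control group. It fell by 2.17 ± 0.45 (adjusted p = 0.0114), and the call held without any 1 library. FRZB was at 221, 264, 154 and 197 CPM and 135, 40.7, 157 and 69.9 CPM, overlapping slightly (fell by 1.12 ± 0.27, adjusted p = 0.023, lost without control replicate 2 or 7-week replicate 4), and SFRP4 fell by 1.10 ± 0.32 (adjusted p = 0.0452, lost without control replicate 2, 3 or 4 or 7-week replicate 1, 2 or 4). BMP3, an antagonistic member of the BMP family, was at 37.7, 51.6, 41.6 and 44.95 CPM and 21.02, 3.9, 11.5 and 4.43 CPM, without overlap (fell by 2.19 ± 0.47, adjusted p = 0.0134). The WNT target AXIN2 stood at -0.66 ± 0.24 and the NOTCH receptor NOTCH1 at -0.18 ± 0.54, and neither passed (adjusted p = 0.0979 and 0.862).

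In the TGF-beta and BMP response list 2 of 26 tested were higher, TGFB1 and INHBA, and 2 lower, TGFB2 and FST (median -0.04). That is 7.69% each way, against 5.41% higher and 2.71% lower over all genes. With the atrial covariate 2 were higher and 0 lower. TGFB1 was at 37.8, 27.7, 18.7 and 35.03 CPM in controls and 64.4, 73.001, 75.5 and 80.9 CPM at 7 weeks, and TGFB2, a second ligand isoform, at 19.6, 23.05, 18.97 and 17.6 CPM and 12.9, 6.63, 10.6 and 10.6 CPM. The groups separated for both, in opposite directions (changes 1.31 ± 0.27 and -0.99 ± 0.18, adjusted p = 0.0111 and 0.00696). INHBA, the activin A subunit, was at 22.4, 39.4, 20.1 and 22.03 CPM and 69.1, 59.7, 61.9 and 50.4 CPM (change 1.22 ± 0.25, adjusted p = 0.0111), and FST, follistatin, which binds activin, at 64.1, 153, 65.2 and 109 CPM and 27.7, 34.2, 40.7 and 17.4 CPM (fell by 1.69 ± 0.46, adjusted p = 0.0361). The FST call held in 1 of the 8 fits, that without control replicate 1, and the other 3 in all. CCN2, a TGF-beta target, did not pass (change -0.03 ± 0.34, adjusted p = 0.972).

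Matrix proteases and their inhibitors had 13 of 33 tested higher and 0 lower (median 0.81). The count was 5 without control replicate 3, 7 without control replicate 4 and 8 without control replicate 2, and 6 with the atrial covariate. MMP13, collagenase 3 of cartilage and bone, was at 0.0713, 0, 0.148 and 0 CPM in controls and 16.6, 0.947, 10.205 and 1.64 CPM at 7 weeks, highest in replicates 1 and 3 (adjusted p = 0.00597). MMP1, interstitial collagenase, was at 0.641, 0.064, 0.0741 and 0 CPM and 19.3, 2.37, 4.37 and 3.15 CPM, replicate 1 far above the rest (change 5.05 ± 1.18, adjusted p = 0.0188), lost without control replicate 2, 3 or 4. MMP9, gelatinase B, was at 3.56, 0.256, 0.593 and 0.894 CPM and 11.6, 9.82, 32.7 and 19.9 CPM, with no overlap (change 3.77 ± 0.92, adjusted p = 0.0235), lost without control replicate 2, 3 or 4 or 7-week replicate 4. MMP14, the membrane-type protease that activates MMP2, was at 102, 82.2, 56.8 and 70.6 CPM and 320.0, 88.03, 212 and 200.5 CPM, replicate 2 within the controls (change 1.33 ± 0.29, adjusted p = 0.0135), lost without control replicate 3. MMP12, macrophage elastase, was at 49.02, 0.192, 0.0741 and 13.9 CPM and 81.1, 28.9, 94.6 and 103 CPM. Control replicates 1 and 4 had it as well, the groups overlapped, and it did not pass (adjusted p = 0.207).

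The protease inhibitor TIMP1 and the urokinase receptor PLAUR rose without overlap. TIMP1 was at 260.4, 151, 76.4 and 185 CPM and 873, 841, 1203 and 960.1 CPM, a 5.77-fold rise (2.53 ± 0.34, adjusted p = 0.00334). PLAUR was at 2.07, 2.11, 0.963 and 1.63 CPM and 15.6, 10.8, 14.9 and 12.1 CPM (change 2.96 ± 0.42, adjusted p = 0.00334). Both calls held without any 1 library and with the atrial covariate. The main gelatinase MMP2 and the inhibitors TIMP2 and TIMP3 did not pass (changes 0.49 ± 0.25, 0.21 ± 0.17 and -0.67 ± 0.33).

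Matrix glycoproteins and elastic fibre genes changed in both directions. Of 33 tested elastic fibre and glycoprotein genes, 4 were higher, TNN, TNC, CCN4 and FN1, and 4 lower, CCN3, FBLN5, LTBP4 and MFAP5 (median -0.20). Each way this was 12.1%, against 5.41% higher and 2.71% lower over all genes. The count of lower genes was 2 without control replicate 2, and with the atrial covariate 1 was higher and 0 lower. TNC, tenascin-C, a matricellular protein of remodelling tissue, was at 62.6, 16.4, 20.7 and 18.1 CPM and 253, 61.1, 153 and 165 CPM. Control replicate 1 reached the lowest diet library, replicate 2 (change 2.36 ± 0.46, adjusted p = 0.00957). TNN, tenascin-W, was at 2.07, 0.96, 0.741 and 0.894 CPM and 15.5, 5.44, 14.9 and 12.9 CPM, without overlap (change 3.33 ± 0.46, adjusted p = 0.00334). FN1, fibronectin, was at 2149.9, 1305, 1347 and 1025 CPM and 7499, 1753, 4089 and 5206 CPM, with replicate 2 again within the controls (change 1.60 ± 0.37, adjusted p = 0.019, lost without control replicate 2, 3 or 4 or 7-week replicate 4).

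FBLN5, fibulin-5, which assembles elastic fibres, was at 817, 678, 487 and 672 CPM in controls and 363, 193, 312 and 236 CPM at 7 weeks. LTBP4, which binds latent TGF-beta to microfibrils and works with FBLN5, was at 1600.2, 2305, 1737 and 1890.0 CPM and 972, 566, 995 and 839 CPM. Both lay below the controls in every diet library (fell by 1.302 ± 0.23 and 1.19 ± 0.20, adjusted p = 0.00624 and 0.00597), and both calls held without any 1 library. ELN, elastin itself, was at 2206, 1012, 768 and 1362 CPM and 1619.9, 1321, 1119 and 576 CPM, and FBN1, fibrillin-1, at 647, 659.7, 576 and 387 CPM and 878, 259, 470.2 and 417 CPM. Neither passed (adjusted p = 0.768 and 0.606). CCN3, an anti-fibrotic matricellular protein, was at 573, 1104, 578 and 593 CPM and 361, 222, 323 and 200.5 CPM (fell by 1.38 ± 0.30, adjusted p = 0.0148), lost without control replicate 2.

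Of 34 tested collagen genes 1 was higher, COL6A1, and 1 lower, COL21A1 (2.94% each way, near the shares over all genes of 5.41% and 2.71%, median 0.28). DESeq2 called 4 higher and 1 lower, and the atrial covariate left 0. The higher count was 0 without control replicate 3 or 4 or 7-week replicate 3 or 4, 2 without control replicate 1 and 3 without 7-week replicate 2. COL1A1, the main chain of type I collagen, was at 2786, 1608, 1119 and 1589.8 CPM and 4871, 1236, 3592 and 3931 CPM, with replicate 2 among the controls (change 0.87 ± 0.36, adjusted p = 0.14). COL3A1 was at 3805, 2818, 2215 and 2515 CPM and 6266, 1266, 4077 and 4133 CPM (adjusted p = 0.49), and POSTN at 2265, 954, 2009 and 1424 CPM at 7 weeks (change 0.88 ± 0.49, adjusted p = 0.276). POSTN passed when control replicate 1 was left out. The COL21A1 call held in 1 of the 8 fits, that without 7-week replicate 1. COL6A1, of the pericellular type VI collagen, was at 925, 936, 499.8 and 689 CPM and 1712, 872, 1784 and 1459 CPM (change 0.90 ± 0.22, adjusted p = 0.0222, lost without control replicate 3 or 4 or 7-week replicate 3 or 4). Collagen-processing enzymes had 5 of 22 tested higher and 1 lower, and the higher count was 0 without control replicate 3 or 4 or 7-week replicate 4, 1 without control replicate 2 and 3 without 7-week replicate 3. Of those tested, 22.7% were higher and 4.55% lower, against 5.41% and 2.71% over all genes. With the atrial covariate both counts were 0. The prolyl hydroxylase P4HA3 was at 7.84, 2.82, 3.04 and 4.71 CPM and 14.2, 13.8, 18.02 and 24.97 CPM (change 1.94 ± 0.48, adjusted p = 0.0259, lost without control replicate 2, 3 or 4 or 7-week replicate 4). PCOLCE2, an enhancer of procollagen cleavage, fell by 0.71 ± 0.16 (adjusted p = 0.0165), and the call held without any 1 library.

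Proteoglycans had 2 of 25 tested higher, PRG4 and ACAN, and 3 lower, HSPG2, GPC3 and OGN (median -0.17). These are 8% and 12%, against 5.41% and 2.71% over all genes. The lower count was 0 without control replicate 2 or 3 or 7-week replicate 2, 1 without 7-week replicate 3 or 4 and 5 without 7-week replicate 1, the higher count 1 without control replicate 3, and both were 0 with the atrial covariate. The HSPG2 call was lost without control replicate 2 or 3 or 7-week replicate 2 or 3, and that of GPC3 without control replicate 2 or 3 or 7-week replicate 2, 3 or 4. PRG4, lubricin, a lubricant of joint surfaces, was at 14.3, 19.3, 6.3 and 5.77 CPM and 98.8, 48.04, 134 and 62.4 CPM, without overlap (change 2.89 ± 0.52, adjusted p = 0.00671), and held without any 1 library. OGN, osteoglycin, was at 3586, 3323, 3048 and 3043 CPM and 2405, 625, 2045 and 1071 CPM (fell by 1.17 ± 0.32, adjusted p = 0.0384, lost without control replicate 1, 2, 3 or 4 or 7-week replicate 2 or 4). DCN, decorin, was at 2301, 2445, 2060.0 and 2279 CPM and 944, 1119, 1519 and 1608 CPM, separated but short of the threshold (adjusted p = 0.075). LUM, lumican, was at 934, 668, 672 and 556 CPM and 1916, 604, 1640.0 and 1691 CPM (adjusted p = 0.0542) and passed without 7-week replicate 2.

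Contractile genes of smooth muscle and myofibroblasts were lower: 8 of 21 tested, with 0 higher and a median of -1.05. The count was 1 without control replicate 2 or 7-week replicate 2 or 4 and 3 without control replicate 3, and 0 with the atrial covariate, which left a median of -0.72. The summed share of the list was 3.98, 6.2, 3.99 and 3.76% in controls and 2.93, 1.94, 2.82 and 1.68% at 7 weeks, without overlap. PDLIM3, an actin-associated PDZ and LIM protein, was at 353, 352, 249.8 and 365 CPM and 194, 98.8, 217 and 147 CPM (fell by 1.05 ± 0.17, adjusted p = 0.00597), the only one of the list's named calls that held without any 1 library. ACTA2, smooth muscle alpha-actin and the myofibroblast marker, was at 7489.9, 11828, 6082 and 7679 CPM and 4398, 3284, 5179 and 2296 CPM. No library overlapped (fell by 1.13 ± 0.31, adjusted p = 0.0385), but the call was lost without control replicate 2, 3 or 4 or 7-week replicate 2 or 4. CNN1, calponin, was at 819.8, 1537, 814 and 1098 CPM and 410.3, 290.1, 656 and 226 CPM, with the highest value in control replicate 2 (fell by 1.46 ± 0.35, adjusted p = 0.0222, lost without control replicate 2 or 7-week replicate 2 or 4). TAGLN, transgelin, was at 2389.7, 4339, 2195 and 1837 CPM and 1979, 2007, 2310.0 and 1570.4 CPM, overlapping (adjusted p = 0.36). MYLK, the myosin light chain kinase, was at 337, 586, 684 and 212 CPM and 415, 58.6, 253 and 45.9 CPM, overlapping (adjusted p = 0.12), and passed without 7-week replicate 1. Markers of interstitial cells and fibroblasts had 0 of 25 tested higher and 1 lower, MFAP5 (4%, against 2.71% over all genes, median -0.13). Its call held in 1 of the 8 fits, that without 7-week replicate 1, and was lost with the atrial covariate.

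**Figure D5:**
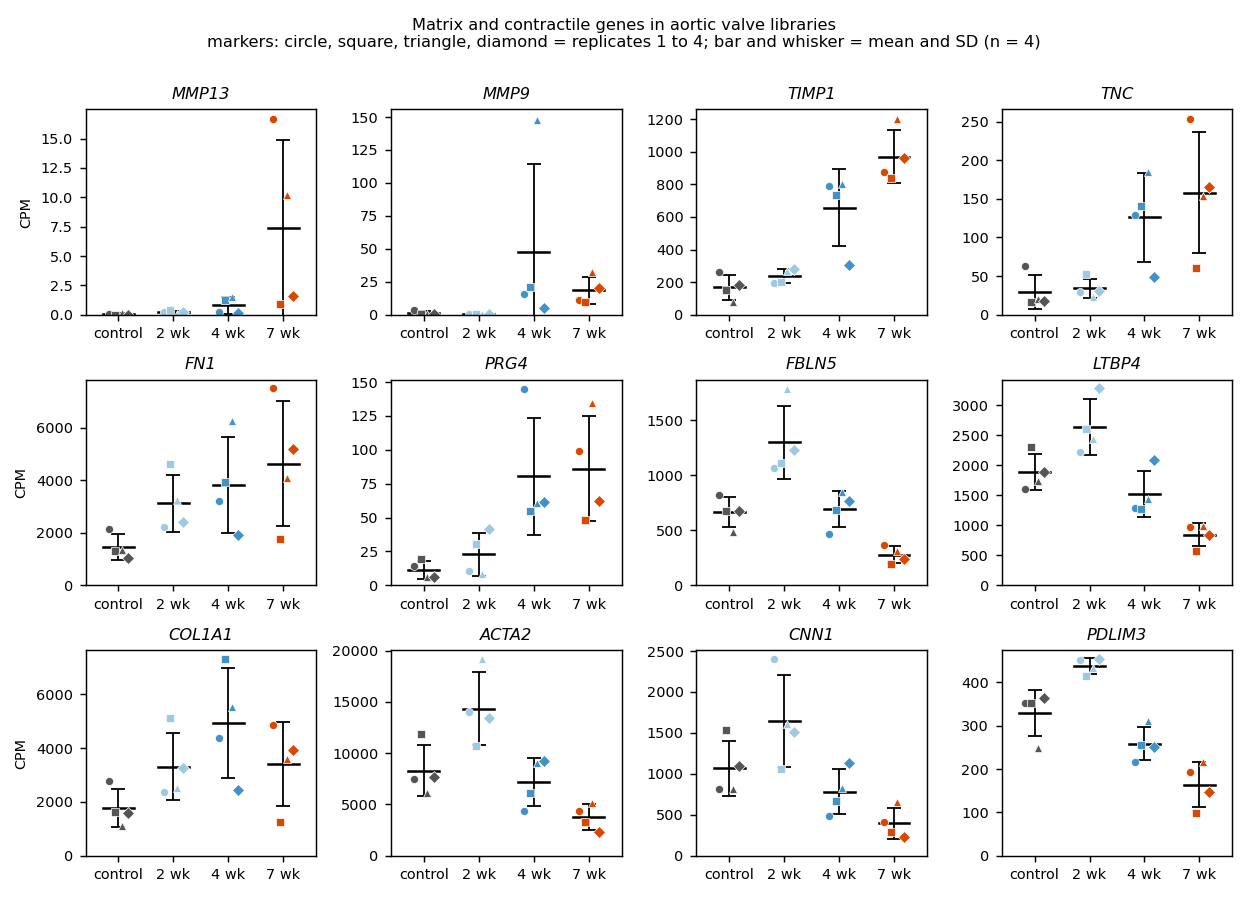
CPM (vertical axes, from 0) of 12 protease, matrix and contractile genes in the 16 valve libraries by group. Points are libraries, and bars with whiskers are means with SD. MMP13, MMP9, TIMP1 and PRG4 are higher and FBLN5, LTBP4, ACTA2, CNN1 and PDLIM3 lower in every 7-week library than in every control, and 7-week replicate 2 lies among the controls for FN1 and COL1A1.

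Cell cycle genes had 18 of 41 tested higher and 0 lower (median 1.68, 40 positive). The count was 4 without control replicate 2 or 3, 5 without control replicate 4, 7 without 7-week replicate 4, 8 without 7-week replicate 3 and 28 without control replicate 1, and 1 with the atrial covariate, under which the median was 1.46. Levels were low. BIRC5, survivin, a mitotic regulator, was at 2.42, 2.24, 1.56 and 1.46 CPM in controls and 7.24, 8.05, 6.96 and 6.06 CPM at 7 weeks, and CENPA, the centromere histone, at 1.85, 0.384, 0.37 and 0.325 CPM and 5.09, 2.72, 5.24 and 5.03 CPM. Neither overlapped (changes 1.89 ± 0.33 and 2.59 ± 0.54, adjusted p = 0.00597 and 0.0122). MCM6, a subunit of the replication helicase, was at 6.34, 3.78, 3.19 and 3.66 CPM and 21.2, 6.98, 10.8 and 10.18 CPM (change 1.48 ± 0.31, adjusted p = 0.0117). MKI67, the usual proliferation marker, had no counts in the controls and 0 to 0.398 CPM at 7 weeks, too few to test. Which cells carried these transcripts cannot be read from bulk RNA.

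Insulin-like growth factor genes had 3 of 14 tested higher and 0 lower (median 0.67). The count was 1 without control replicate 2 or 3 or 7-week replicate 2 or 4, and 1 with the atrial covariate. PAPPA2, a protease that frees insulin-like growth factors, was at 2.71, 2.37, 2.52 and 1.79 CPM and 27.9, 5.32, 24.4 and 6.97 CPM (change 2.68 ± 0.53, adjusted p = 0.00958). IGFBP3, the main carrier, was at 88.3, 14.5, 14.4 and 26.3 CPM and 157, 193, 78.9 and 149.7 CPM, overlapping through control replicate 1 (change 2.06 ± 0.56, adjusted p = 0.0368, lost without control replicate 2, 3 or 4 or 7-week replicate 2 or 4). Of 21 immediate early genes, which respond to stimulation or handling, 3 were higher, SOCS3, JUNB and EGR3, and 0 lower (median 0.39). The higher share was 14.3%, against 5.41% over all genes. The count was 5 without control replicate 1 and 2 with the atrial covariate. SOCS3, a feedback inhibitor of cytokine signalling, was at 12.2, 5.51, 5.78 and 7.72 CPM and 46.7, 31.5, 31.4 and 37.4 CPM (change 2.22 ± 0.31, adjusted p = 0.00334). FOS and EGR1 did not pass (adjusted p = 0.152 and 0.634).

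Of 26 tested genes of the antioxidant (NRF2), haem and iron list, 8 were higher, among them HMOX1, FTL, FTH1, TFRC, CD163, CYBB and GPX1, and 1 was lower (median 0.35). The shares were 30.8% and 3.85%, against 5.41% and 2.71% over all genes. The count of higher genes was 4 without control replicate 3 and 5 without control replicate 4 or 7-week replicate 4, and with the atrial covariate 1 was higher and 0 lower. HMOX1, which degrades haem, was at 9.62, 8.13, 5.71 and 7.07 CPM and 31.2, 21.8, 26.9 and 47.4 CPM (change 2.05 ± 0.38, adjusted p = 0.00753). FTL and FTH1, the ferritin chains that store iron, were at 619.7, 709, 379.9 and 648 CPM and 1296, 1733, 1369.7 and 1706 CPM, and at 2585, 3001, 1834 and 2387 CPM and 4659, 5094, 4930.3 and 4944 CPM. All 3 separated the groups (ferritin changes 1.41 ± 0.29 and 1.02 ± 0.21, adjusted p = 0.0117 and 0.0111). SOD3, extracellular superoxide dismutase, was the 1 lower gene, at 660.3, 960.0, 449.8 and 718 CPM and 290.1, 364, 521 and 365 CPM, overlapping (fell by 0.84 ± 0.24, adjusted p = 0.0461, lost without control replicate 1, 2 or 4 or 7-week replicate 1, 2 or 4). The NRF2 targets NQO1 and GCLM did not pass (adjusted p = 0.437 and 0.641). Of 5 tested erythroid and platelet genes 3 were higher, among them ALAS2 and SLC4A1. The count was 0 without control replicate 2 or 7-week replicate 4 and 1 without control replicate 1 or 3, and 0 with the atrial covariate, and the ALAS2 call was lost without control replicate 1, 2 or 4 or 7-week replicate 1 or 4. The share of the list was 0.00200 to 0.00555% in controls and 0.00445 to 0.0185% at 7 weeks, overlapping. SLC4A1, the red cell anion exchanger, was at 0.214, 0.192, 0.222 and 0.325 CPM and 1.89, 0.828, 1.26 and 1.64 CPM (adjusted p = 0.0186, lost without control replicate 2 or 3 or 7-week replicate 4). The part of blood in the HMOX1 and ferritin results was not tested.

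Of 52 oxidative phosphorylation genes 0 passed by edgeR or by DESeq2, and 0 had an unadjusted p under 0.05 with edgeR (median 0.20). Of 9 fatty acid synthesis genes 0 passed by edgeR, 1 by DESeq2 and 1 at an unadjusted p under 0.05 with edgeR (median -0.08). Of 27 fatty acid oxidation and uncoupling genes 1 was higher, UCP2 (3.70%, against 5.41% over all genes). UCP2, a mitochondrial carrier of leukocytes, was at 24.6, 15.9, 13.1 and 18.5 CPM and 75.5, 64.96, 73.3 and 111 CPM (change 2.17 ± 0.38, adjusted p = 0.00658, lost with the atrial covariate). In the glycolysis and hypoxia list (29 tested) LDHA was higher and PFKP lower, and DESeq2 called 5 higher and 2 lower. By edgeR that is 3.45% each way, near the shares over all genes of 5.41% and 2.71%. The higher count was 0 without control replicate 1, 2, 3 or 4 and 2 without 7-week replicate 1, the lower count 2 without control replicate 2, and the atrial covariate left 1 higher and 0 lower. LDHA, lactate dehydrogenase A, was at 2.08, 1.76, 2.87 and 0.988 CPM and 162, 4.53, 6.98 and 3.69 CPM, far highest in 7-week replicate 1 (adjusted p = 0.0328, lost without control replicate 1, 2, 3 or 4 or 7-week replicate 1). PFKP, the platelet-type phosphofructokinase, was at 131, 168, 135 and 129.8 CPM and 89.3, 34.4, 85.2 and 59.6 CPM (fell by 1.13 ± 0.20, adjusted p = 0.00671). Of 27 unfolded protein and stress genes 1 was higher (3.70%, against 5.41% over all genes), and DESeq2 called 4. The 1 was SDF2L1 (change 1.23 ± 0.28, adjusted p = 0.0173, lost without control replicate 3). Without 7-week replicate 1 the count was 3, and with the atrial covariate 0.

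Endothelial genes had 4 of 25 tested higher, NOS3, ENG, VWF and KLF2, and 2 lower, HEY2 and ESAM (median 0.44). The shares were 16% and 8%, against 5.41% and 2.71% over all genes. The count of higher genes was 0 without control replicate 2, 1 without control replicate 3 or 4 or 7-week replicate 4 and 2 without 7-week replicate 2. The count of lower genes was 1 without control replicate 2, 3 or 4 or 7-week replicate 2, 3 or 4, and with the atrial covariate both counts were 0. The KLF2 call held in 1 of the 8 fits, that without 7-week replicate 1, and that of ESAM was lost without control replicate 2, 3 or 4 or 7-week replicate 2, 3 or 4. ENG, endoglin, was at 142, 79.96, 114 and 134 CPM and 238, 224, 201 and 287 CPM (change 1.00 ± 0.27, adjusted p = 0.0327), and VWF, von Willebrand factor, at 144, 56.3, 85.5 and 93.3 CPM and 360.4, 187, 142 and 295 CPM, overlapping (change 1.34 ± 0.37, adjusted p = 0.0391). Both calls ended in 6 of the 8 fits, and held without 7-week replicate 1 or 3 for ENG and without control replicate 1 or 7-week replicate 3 for VWF. HEY2, a NOTCH target of arteries, was at 63.1, 106, 85.1 and 69.2 CPM and 40.3, 18.8, 37.5 and 30.7 CPM (fell by 1.39 ± 0.26, adjusted p = 0.00761), and the call held without any 1 library. NOS3, endothelial nitric oxide synthase, was at 0, 0, 0.214 and 0 CPM and 11.7, 1.34, 8.54 and 15.99 CPM (adjusted p = 0.0136), lost without control replicate 2. Values at or near 0 in control cusps that hold other endothelial transcripts make its level uncertain. PECAM1, an endothelial and platelet adhesion molecule, was at 81.2, 48.4, 78.99 and 64.2 CPM and 201, 96.8, 93.7 and 145 CPM, separated but short of the threshold (adjusted p = 0.0591), which it passed without 7-week replicate 3.

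Markers of neighbouring tissue moved unevenly. The atrial list had 6 of 10 tested higher (median 5.29), and the count was 1 without control replicate 2 or 3, 2 without control replicate 4 and 3 without control replicate 1 or 7-week replicate 3. NPPA, atrial natriuretic peptide, was at 0.285, 1.15, 2.59 and 0.975 CPM in controls and 435, 1336, 1985 and 216 CPM at 7 weeks (change 9.65 ± 1.73, adjusted p = 0.00671). MYL4, the atrial light chain of myosin, was at 6.91, 2.05, 8.002 and 5.28 CPM and 128, 518, 2315 and 183 CPM (change 7.09 ± 1.72, adjusted p = 0.0224, lost without control replicate 2, 3 or 4). BMP10, a growth factor of atrial muscle, was at 0.0713, 0, 0 and 0 CPM and 0.914, 0.355, 20.7 and 2.06 CPM, high in replicate 3 (adjusted p = 0.0219, lost without control replicate 1, 2, 3 or 4 or 7-week replicate 3). Among the 6 left ventricular myocardium libraries NPPA lay at 0.215, 0.671 and 0.0588 CPM in controls and 3.87, 92.1 and 31.2 CPM on diet. SLN was also higher in every diet library, at 0.0671 to 0.176 CPM and 0.404 to 5.57 CPM. MYL4 and MYL7 overlapped, at 0.235 to 26.9 CPM and 0.187 to 3.03 CPM over all 6, and BMP10 had 0 counts. The atrial list share overlapped too, at 0.0279 to 0.312% in controls and 0.0123 to 0.0468% on diet. The effect of diet in myocardium was not tested. Most of these myocardium libraries share the name code of a cusp compared here, controls with controls and diet with 7-week diet. If the code marks the animal, the tissues do not come from separate animals. The ventricular myosin MYH7 was at 7671, 3374, 17227 and 6965 CPM and 3921, 13699.5, 715 and 11326 CPM, overlapping (adjusted p = 0.912). Keratin and epithelial genes had 3 of 13 tested higher, KRT5, EPCAM and KRT19 (median 2.75). The median was 0.86 without 7-week replicate 3, and with the atrial covariate it was -0.27, with 1 gene higher. KRT19 was at 3.78, 8.83, 1.41 and 2.6 CPM and 24.4, 17.6, 78.7 and 15.03 CPM (adjusted p = 0.0281, lost without control replicate 1, 3 or 4 or 7-week replicate 3). The adipocyte list had 0 of 11 tested higher and 1 lower, LEP, leptin, at 9.83, 13.3, 4.3 and 17.9 CPM and 1.37, 0.355, 2.65 and 0.909 CPM (fell by 3.12 ± 0.67, adjusted p = 0.0132). The lower share was 9.09%, against 2.71% over all genes. ADIPOQ, adiponectin, overlapped at 86.9, 66.9, 49.1 and 147 CPM and 183, 44.7, 53.9 and 123 CPM. MLANA, a melanocyte gene, was at 0.641, 0.128, 0.667 and 0.244 CPM and 4.7, 4.02, 4.24 and 8.55 CPM (adjusted p = 0.0112). It was the 1 of 15 tested Schwann cell, neural and melanocyte genes that passed (6.67%, against 5.41% higher over all genes).

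Direct tests set the 7-week values against shorter diets. Against 4 weeks 17 genes differed (0.109% of those tested), all higher at 7 weeks. All 17 carry LOC numbers, 16 of them also differed from control, and 0 genes with a symbol passed. LOC numbers make up 19.8% of the genes tested. Unadjusted, 1880 genes had p under 0.05, and DESeq2 called 196. LOC100341160, which RefSeq pairs with LYZ, lysozyme, and which was named after its values were seen, was at 0, 0, 0.378 and 0.0998 CPM at 4 weeks and 2.7, 2.37, 36.5 and 28.5 CPM at 7 weeks, high in replicates 3 and 4 (adjusted p = 0.0208). Lysozyme belongs to a multigene family, so reads may be shared between copies. LOC100009286, paired with EEF1B2, a translation elongation factor, was at 2.9, 5.13, 3.83 and 2.74 CPM and 12.2, 12.1, 11.5 and 10.01 CPM (adjusted p = 0.0344). Genes of mineral deposition and matrix spread widely at 4 weeks. SPP1 was at 295, 315, 778 and 197 CPM, MMP13 at 0.206, 1.28, 1.54 and 0.156 CPM and SOST at 8.44, 16.8, 22.02 and 39.8 CPM (adjusted p against 7 weeks 0.445, 0.188 and 0.216). Closest to the threshold among the genes named here were FBLN5 and OSR1 (adjusted p = 0.0571 and 0.088). A difference between 4 and 7 weeks was thus not detectable for these genes with 4 libraries a group.

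Against 2 weeks 4175 genes differed (26.7%), 2265 higher (14.5%) and 1910 lower (12.2%) at 7 weeks. The 2-week libraries held 0.281 to 0.956% cardiomyocyte counts, below every 7-week library. With the mean log2 CPM of that list as a covariate 365 genes differed. This covariate did not overlap either, at 4.99 to 7.13 at 2 weeks and 7.54 to 9.88 at 7 weeks. A call lost in that fit therefore does not by itself show a smaller change. CD68 was at 10.5, 13.5, 12.003 and 22.6 CPM at 2 weeks (adjusted p = 0.00129 against 7 weeks) and ELN at 4969.5, 3799.8, 7216 and 3506 CPM (adjusted p = 0.00268). ACTA2 was at 13975, 10686, 19174 and 13472 CPM, all above the 7-week libraries (adjusted p = 0.00134). SOST at 2 weeks was at 34.1, 50.1, 84.7 and 56.97 CPM and KL at 23.7, 9.96, 14.5 and 7.3 CPM, also all above (adjusted p = 8.24e-04 and 0.00107). SPP1, in contrast, overlapped between 2 and 7 weeks, at 149, 450.3, 355 and 487 CPM at 2 weeks (adjusted p = 0.176).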

How the data were processed

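Single-end RNA-seq libraries were prepared from total RNA with a directional kit, per the labels' protocols. The submitters' processing notes name RSEM 1.3.3 and STAR 2.7.8a, with FastQC 0.11.9, edgeR 3.42.4 and Trim Galore 0.6.6, in no stated role. Genome build, annotation and strand setting were not given in the sources used here. The authors deposited expected counts per gene, of which 8.79 to 10.8% per library were not whole, and had taken 346 of 31346 genes out of this table, per the labels' design text those found in myocardium and valve but not in aorta, so a valve gene low in aorta can be missing.

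The expected counts were rounded. Genes were filtered (filterByExpr, minimum count 10, total 15), scaled by TMM and fitted with edgeR 4.0.16 (quasi-likelihood F test, R 4.3.3) over all 16 valve libraries, without covariates, with Benjamini-Hochberg adjustment over all 15627 genes. Changes are log2 fold changes ± SE, 7 weeks minus the other group. Fits were tested on simulated data. limma 3.58.1 and DESeq2 1.42.0 served as alternatives. No fold is given for genes with 3 or fewer control counts.

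Samples were grouped by label and every gene of the table was used. The gene lists and the comparisons were chosen with earlier results of these data known. Genes are named by 4 rules: the 12 largest changes each way with a symbol, a mean of at least 5 CPM and no overlap; up to 4 members per list and direction with the smallest p; a set list; and every member of a count of 5 or fewer. CD36, PLIN2, APOE, OLR1, CLEC7A, CTSK, DCSTAMP, MMP12, FBN1, DCN, LUM, MYLK, CXCL8, TNF and list members given without passing were named after their values were seen. Some genes that the rules would name are not reported here.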

Additional observations from a re-analysis of the deposited data

Results flagged for a closer look

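In a group of 4 libraries, a library was singled out when its gap to the nearest other took a share of the group's range above Dixon's critical value at the 95% level. This happened in 36 of 335 gene and group combinations. The nominal rate of 5% holds for independent, normally distributed values. CPM of genes that share libraries and were often named by their results need not meet this, so no excess over chance is read from the count. Values are CPM, and the causes were not tested.

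Control replicate 1 stood above the other controls for 13 of these genes: CENPA at 1.85, TNN at 2.07, TNC at 62.6, IGFBP3 at 88.3, VCAM1 at 55.4, ABCG1 at 6.98, LCP1 at 48.3, SPP1 at 218, ACAN at 84.4, MSR1 at 2.71, CD22 at 1.43, ABCA1 at 61.3 and POSTN at 2163. The other controls lay at 0.325 to 0.384 CPM for CENPA, 110 to 121 CPM for SPP1 and 286 to 544 CPM for POSTN. The first 11 of the 13 were called higher at 7 weeks. Many of the genes examined were named because they were called, so this does not place the control relative to the diet group over all genes. Control replicate 2 stood high for CCN3 at 1104, PFKP at 168, LMOD1 at 2145, SMTN at 1828, INHBA at 39.4 and SFRP4 at 42.7. Control replicate 3 was low for CTSH at 34.8, PDLIM3 at 249.8 and APOE at 163, and control replicate 4 for ANKH at 135 and MRC1, the mannose receptor, at 12.4.

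At 7 weeks the libraries that stood apart differed by gene. Replicate 1 was high for the collagenase MMP1 at 19.3 and for LDHA at 162. Replicate 2 was low for CENPA at 2.72 and for IGFBP7, a binding protein of insulin-like growth factors, at 931, and high for S100A8 at 14.7 and S100A9 at 5.44. Replicate 3 was high for BMP10 at 20.7, KLF2, a flow-responsive endothelial factor, at 57.3, KRT19 at 78.7 and AHSG at 11.7. Replicate 4 was high for FGF23 at 15.3 and MLANA at 8.55.

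Levels also differed between diet durations by direct test: 17 genes between 7 and 4 weeks and 4175 between 7 and 2 weeks, with edgeR's quasi-likelihood test at an adjusted p of 0.05.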

How the results depend on the processing

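For 7 weeks against control (1270 genes), DESeq2 called 2231, a replicate block 685 and the atrial covariate 203, and leaving out 1 library 460 (control replicate 3) to 2283 (7-week replicate 1). Other scalings, filters and covariates stayed within 1.5 times. The 7 against 4 week count (17) was 196 with DESeq2, 11 with a stricter filter, 0 with the RN18S covariate, 10 with the block, 34 with limma-voom, 0 among genes with a symbol alone, and 9 to 54 without 1 library. The 7 against 2 week count (4175) was 365, 1359 and 2674 with the cardiomyocyte, atrial and mitochondrial covariates, and 2674 to 5494 without 1 library. Why these counts moved was not tested. The atrial, mitochondrial and symbol-only fits were chosen after seeing the data. The difference in cardiomyocyte share ran from -0.207 (without 7-week replicate 2) to 1.26 percentage points (without replicate 1).

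Signs turned for MYL7 (-0.68), BMP4 (0.11), ELN (0.51), FBN1 (0.13) and NT5E (0.27) with the atrial covariate, for ELN with the cardiomyocyte (0.059) and RN18S (0.081) covariates, for ENPP1 with the mitochondrial covariate (-0.017) and for ADIPOQ with limma-voom (-0.24). MYL7 was the only one of these called in the comparison with control. It is a member of the list whose mean is the atrial covariate, so its turn there was partly built in. Without 1 library, uncalled genes ranged from -0.15 to 0.39 (ENPP1), -0.41 to 0.089 (ELN), -0.817 to 0.42 (MYH7), -0.23 to 0.54 (ADIPOQ) and -0.37 to 0.049 (CD36). Of 146 named calls, 72 held in all 8 such fits. The replicate numbers in the titles did not pair the samples: deviations correlated at 0.14, -0.07 and -0.07 for numbers 1 to 3 (14347 genes), and none of the first 3 libraries at 7 weeks correlated best with the control of its own number. Genes below about 1 CPM rest on few counts per library, which limits what is detectable for cytokines and mitotic genes.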
